A study of Mus musculus with 4 samples.

Results

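The 10 genes of IL-4 receptor, JAK and STAT6 signalling considered here are Il4ra, Il2rg, Il13ra1, Jak1, Jak3, Tyk2, Irs2, Stat6, Socs1 and Cish. They were taken from a list of names, out of 21887 protein-coding genes, and every ATAC-seq peak within 10 kb of each gene span was collected, then every peak within 50 kb. All 10 names were matched to a gene span and to a transcription start. ATAC-seq maps open chromatin through the places where the transposase Tn5 inserts adapters. The libraries came from macrophages grown for 5 days in 10% M-CSF from the bone marrow of C57BL/6 mice, with 50000 cells each. KO cells were Slc6a8-/y, lacking the creatine transporter gene on chromosome X, and WT cells were wild-type. The 4 groups were KO IL-4, KO untreated, WT IL-4 and WT untreated, with 1 library each, and IL-4 was given at 10 ng/mL for 6 h. The labels do not say whether marrow was pooled or how the Slc6a8 allele was made.

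IL-4 binds the alpha chain encoded by Il4ra, which pairs with the common gamma chain (Il2rg) in the type I receptor or with the IL-13 receptor alpha 1 chain (Il13ra1) in the type II receptor. The kinases JAK1, JAK3 and TYK2 sit on these chains and phosphorylate them, which recruits the transcription factor STAT6 and the adaptor IRS2. SOCS1 and CISH belong to the family of SH2-domain proteins that are switched on by cytokine signals and dampen them. In macrophages this route drives alternative activation.

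Because each group held 1 library, no difference could be set against replicate error and no test was run: every comparison is between these libraries. Read depth is not known, and a peak can be missing from a list because of depth alone. The score of a peak is the authors' value, and its percentile places it within its own list only. The lists held 10443 peaks in KO IL-4, 13714 in KO untreated, 9930 in WT IL-4 and 17339 in WT untreated. Slc6a8 itself had 0 peaks within 10 kb in each of the 4 libraries, so the peak lists give no check of the genotype labels. Of 10 macrophage marker genes, 5, 7, 7 and 10 had a peak within 10 kb in that order, and of 5 neutrophil, 3 mast cell and 3 fibroblast markers none did except 1 neutrophil gene in WT untreated. The macrophage genes without one were Cebpb, Itgam, Lyz2, Mertk and Spi1 in KO IL-4, Adgre1, Cebpb and Fcgr1 in KO untreated, and Cebpb, Itgam and Mertk in WT IL-4. Of 6 T cell markers 3 had a peak in each library, though not Cd3e, Cd4 or Cd8a. Of 4 B cell markers 1 had a peak in each library except WT untreated, where 2 did. All 3 dendritic cell markers had one in KO IL-4, KO untreated and WT untreated, and 2 did in WT IL-4. The part of cell composition in any result was not tested.

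The promoter windows of 3 genes are shown because of a peak that stood higher in both IL-4 lists (Socs1), a peak found in both untreated lists and in neither IL-4 list (Irs2) or a STAT-type motif (Cish). Each runs from 250 bases before to 50 bases after the start, 5' to 3' on the gene's strand, from RefSeq on GRCm38.p6, the patch of the assembly that mm10 names. Capitals mark each match to a searched motif on either strand. Socs1 is at chr16:10785487-10785786 on the minus strand, Irs2 at chr8:11008880-11009179 on the minus strand and Cish at chr9:107296409-107296708 on the plus strand.
Socs1: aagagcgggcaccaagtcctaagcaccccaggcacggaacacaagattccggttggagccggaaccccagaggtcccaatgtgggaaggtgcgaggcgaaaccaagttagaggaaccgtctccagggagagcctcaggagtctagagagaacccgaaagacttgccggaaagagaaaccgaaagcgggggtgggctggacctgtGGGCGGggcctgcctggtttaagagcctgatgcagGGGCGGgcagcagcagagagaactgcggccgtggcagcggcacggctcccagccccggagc
Irs2: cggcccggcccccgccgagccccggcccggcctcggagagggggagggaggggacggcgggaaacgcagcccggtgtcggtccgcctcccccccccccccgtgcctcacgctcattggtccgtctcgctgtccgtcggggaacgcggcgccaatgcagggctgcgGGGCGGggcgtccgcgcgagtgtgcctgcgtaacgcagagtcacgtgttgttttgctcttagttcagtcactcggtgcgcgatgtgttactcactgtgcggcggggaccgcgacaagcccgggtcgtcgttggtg
Cish: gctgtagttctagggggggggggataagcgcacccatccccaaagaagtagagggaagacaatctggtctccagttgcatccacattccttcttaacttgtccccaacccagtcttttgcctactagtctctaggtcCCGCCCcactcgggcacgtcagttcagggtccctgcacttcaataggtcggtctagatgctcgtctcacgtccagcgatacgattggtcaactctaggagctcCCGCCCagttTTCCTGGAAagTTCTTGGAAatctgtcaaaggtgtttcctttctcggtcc

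The motifs searched were the STAT6-type palindrome (TTC and GAA with any 4 bases between them), TTCNNNGAA (the spacing of other STATs), GAGGAAGT (PU.1 type), TGANTCA (AP-1) and GGGCGG (Sp1 and KLF type), and no 2 matches in the printed windows overlapped. Cish held TTCNNNGAA in 2 places, as TTCCTGGAA from position 0, the start itself, and as TTCTTGGAA from position 11. This motif was in 7.69% of the 21263 promoter windows of protein-coding genes. The STAT6-type palindrome was in 0 of the 10 windows and in 6.35% of all. GAGGAAGT and TGANTCA were also in 0 of the 10, against 3.13% and 6.99% of all. GGGCGG was in 8 of the 10 windows, against 46.2% of all. In Socs1 its matches began at positions -46 and -11 relative to the start and in Irs2 at -85, and in Cish it was read on the minus strand at -113 and -10. A match is a run of letters and not a bound site, and the absence of a motif refers to these 300 bases only.

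Taken over the 10 genes, the number of peaks followed the length of the lists. The loci (gene span plus 10 kb on each side) held 11 peaks in KO IL-4, 15 in KO untreated, 11 in WT IL-4 and 20 in WT untreated. These were 0.105%, 0.109%, 0.111% and 0.115% of the lists in that order. A peak was present at 6, 9, 6 and 9 of the 10 loci, against 44.1%, 51.6%, 43.3% and 56.0% of all protein-coding genes. Merging the 4 lists gave 20 regions at these loci. Of them 9 had a peak in every library (45.0%, exact 95% interval 23.1 to 68.5, counting error only), against 35.6% of the 16642 regions at all protein-coding loci. Another 3 (15.0%) had a peak in both untreated libraries and in neither IL-4 library, against 10.4% of all such regions, and 5 (25.0%) had one in WT untreated alone, against 17.5%. The number with a peak in the IL-4 libraries only was 0, where 0.505% of all regions had one in both of them, 3.02% in KO IL-4 alone and 2.63% in WT IL-4 alone. These shares of 20 regions were close to the background.

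**Figure D1:**
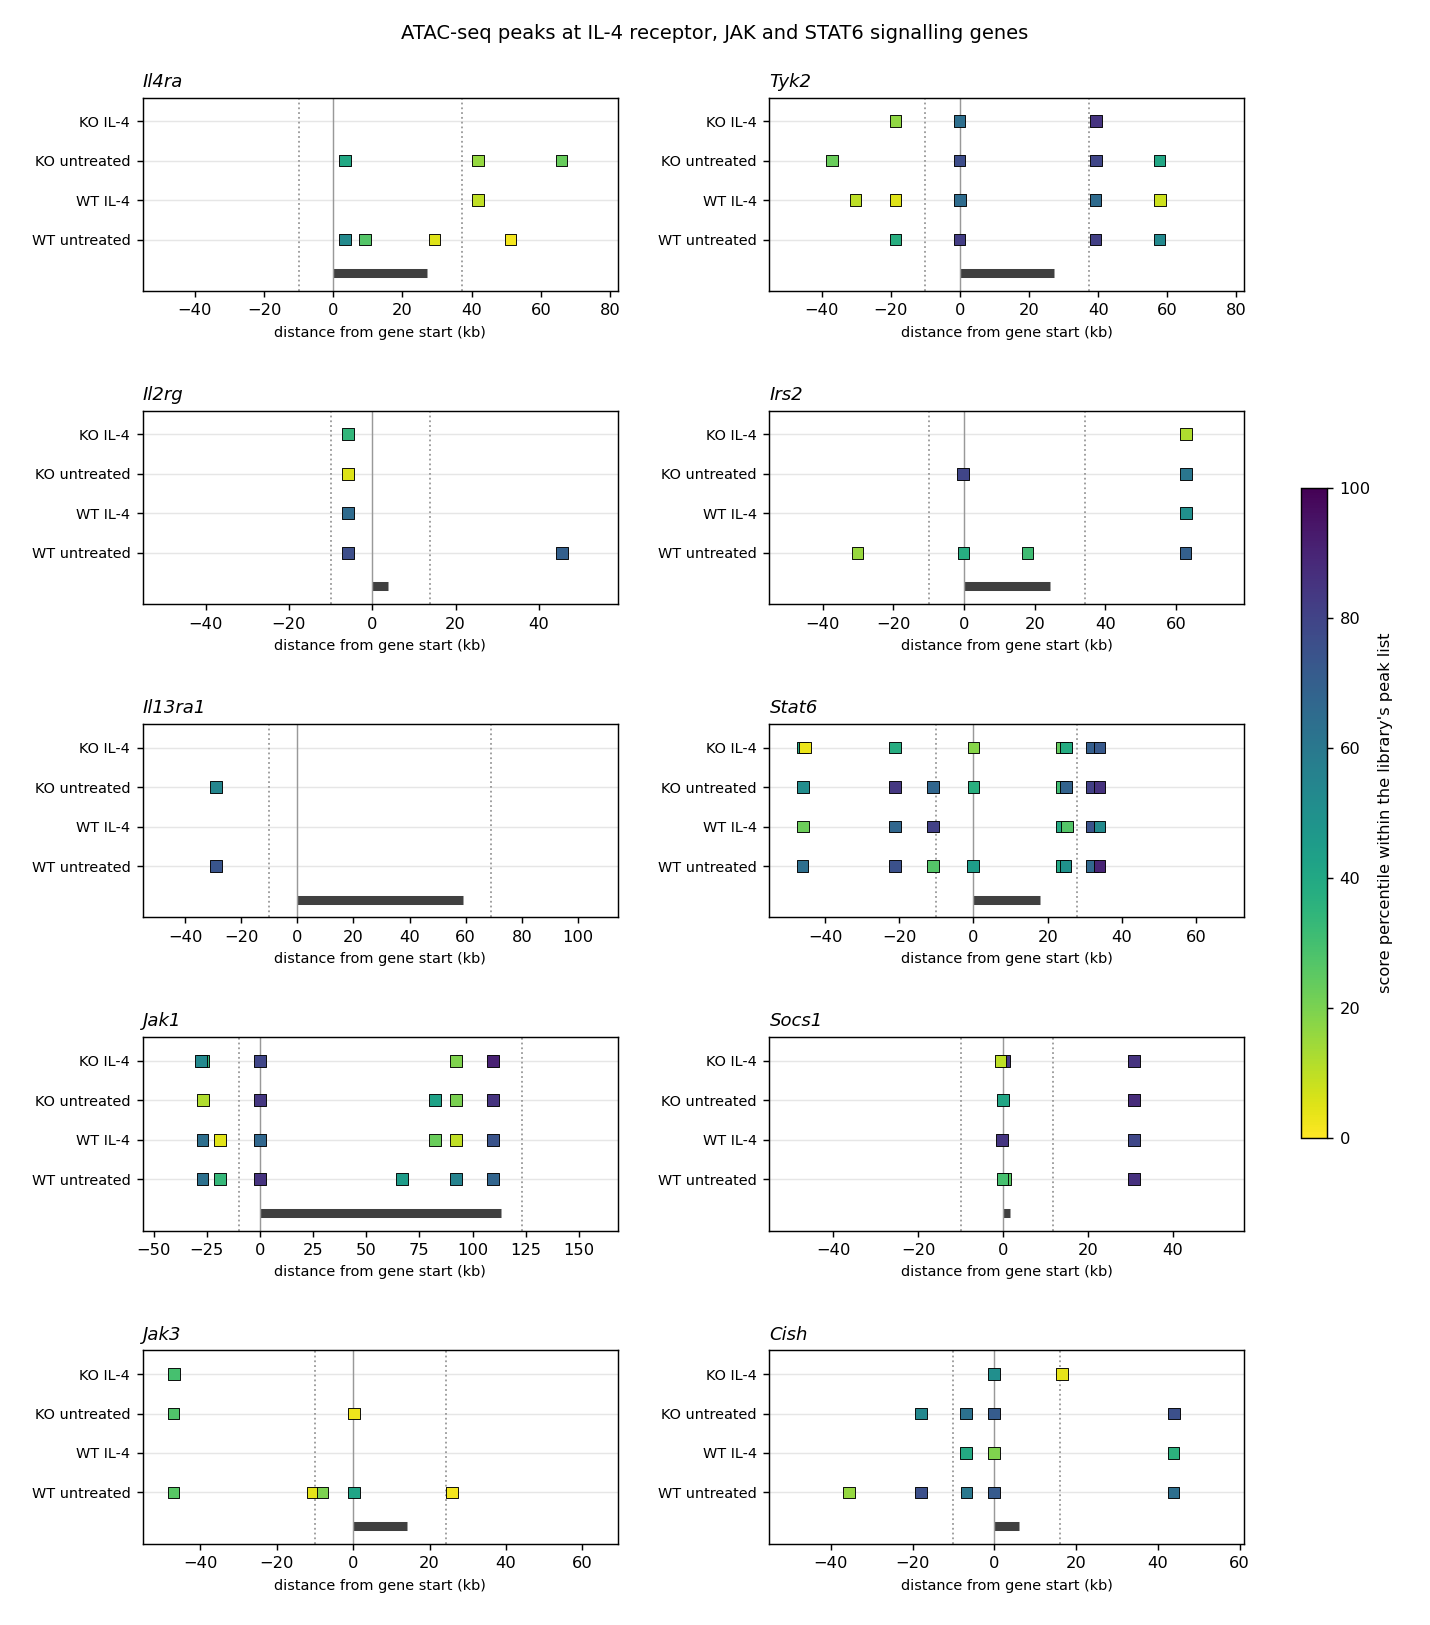
Peaks within 50 kb of each gene, by distance from the gene's start in kb (negative is upstream), with KO IL-4, KO untreated, WT IL-4 and WT untreated from top to bottom. Each square is 1 peak coloured by the percentile of its score within its list, the dark bar is the gene span and the dotted lines lie 10 kb outside it. Il4ra, Jak3 and Irs2 have squares near their starts in untreated rows only, and Il13ra1 has none between the dotted lines.

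The genes of the receptor chains had no promoter peak in any library. A promoter peak is here a peak within 1 kb of the annotated start. At Il4ra (chromosome 7, 125552271 to 125579474, plus strand) a region 3062 bp inside the gene had a peak of score 81.0 in KO untreated (percentile 40.0) and of 105.8 in WT untreated (percentile 52.5). Neither IL-4 library had a peak there. WT untreated alone had peaks at 125561353 to 125561624 in the gene (70.1) and beyond its end at 125581351 to 125581661 (54.1). Peaks of such scores were often without a counterpart: of the KO untreated peaks in the score decile of 81.0, 44.4% had none in KO IL-4, and of the WT untreated peaks in the score decile of 105.8, 47.6% had none in WT IL-4.

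The loci of the partner chains were nearly empty. Il2rg (chromosome X, 101264385 to 101268255, minus strand) had 1 locus peak in each library, and it covered the start of the neighbouring gene Med12, 5643 bp or more from the start of Il2rg. Its score was 70.8 in KO IL-4, 52.7 in KO untreated, 108 in WT IL-4 and 174 in WT untreated. Il13ra1 (chromosome X, 36112108 to 36171262, plus strand) had no locus peak in any library, as 8844 other genes (40.4%) also had none. Its nearest peak lay 28725 bp upstream or more and was in KO untreated (100.8) and WT untreated (162) only. The span of Dock11 was nearer, at 6318 bp or more. In the score deciles of these peaks, 31.9% in KO and 18.4% in WT had no counterpart in the IL-4 library. The promoter windows of Il4ra and Il13ra1 held 25 and 28 CpG sites, against a median of 13 over all windows, and that of Il2rg held 3, so the genes without a promoter peak included CpG-rich promoters.

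The kinase genes differed from each other. Tyk2 (chromosome 9, 21104068 to 21131393, minus strand) had 1 locus peak in each library, over its start, with a score of 106 in KO IL-4, 159 in KO untreated, 107 in WT IL-4 and 205 in WT untreated. Jak1 (chromosome 4, 101151974 to 101265282, minus strand) also had a peak over its start in each, of 142 in KO IL-4, 198 in KO untreated, 110.3 in WT IL-4 and 228 in WT untreated. These promoters stood between percentiles 63.7 and 85.3 of their lists.

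Jak1 held further peaks deep in its span. The region at 101155295 to 101156127, 109096 bp from the start and nearer to the start of Raver2, scored 203 in KO IL-4 (percentile 90.9), 203 in KO untreated (85.1), 127 in WT IL-4 (74.5) and 142 in WT untreated (67.7). It was the highest of all locus peaks of the 10 genes in both KO lists, above the Jak1 promoter. In the WT lists it stood above the Jak1 promoter with IL-4 and below it untreated. A region 92062 bp from the start had a peak in all 4 libraries, of 60.0, 62.1, 54.4 and 111 in KO IL-4, KO untreated, WT IL-4 and WT untreated. At 101182626 to 101183079 a peak was found in KO untreated (84.1) and WT IL-4 (61.7) only. At 101198368 to 101198672 it was found in WT untreated (93.2) only.

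Jak3 (chromosome 8, 71676383 to 71690577, plus strand), whose kinase partners the common gamma chain, had a promoter peak in the untreated libraries only. It scored 51.4 in KO untreated, at percentile 2.65, and 88.0 in WT untreated, at percentile 41.7. It began 38 bp after the start in KO untreated and 27 bp after it in WT untreated. Among KO untreated peaks in the lowest score decile 75.9% had no counterpart in KO IL-4, and among WT untreated peaks in the score decile of 88.0 it was 62.1% in WT IL-4. With the lists at equal lengths, or with scores of 100 or more, Jak3 had no promoter peak in any library.

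Irs2 (chromosome 8, 10984681 to 11008929, minus strand), the adaptor gene, had a promoter peak in both untreated libraries and in neither IL-4 library. In KO untreated the peak spanned 1172 bp, wider than 98.3% of that list or as wide, and scored 170.3 (percentile 79.4). In WT untreated it spanned 466 bp and scored 82.3 (percentile 37.6). Only 9.99% (8.45 to 11.7) of the KO untreated peaks in the same score decile had no counterpart in KO IL-4, against 71.6% (69.5 to 73.8) for the WT untreated peak in WT IL-4. The KO untreated peak thus stands among peaks that mostly had a counterpart, and the WT untreated peak does not. With the lists at equal lengths, or with scores of 100 or more, the peak remained in KO untreated and was gone from WT untreated. A region 62383 bp or more downstream of the start had a peak in every library, of 55.7 in KO IL-4, 114 in KO untreated, 85.8 in WT IL-4 and 148 in WT untreated.

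Stat6 (chromosome 10, 127642955 to 127660987, plus strand) had a peak over its start in 3 of the 4 libraries. It scored 59.3 in KO IL-4 (percentile 18.3), 77.3 in KO untreated (36.8) and 92.2 in WT untreated (44.6), and WT IL-4 had none. Of the KO IL-4 peaks in the same score decile, 59.3% had no counterpart in WT IL-4, and with scores of 100 or more no library had a promoter peak at Stat6. The other locus regions, over and beside the start of the neighbouring gene Nab2, had peaks in all 4 libraries.

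A region upstream of Stat6, outside the 10 kb limit, differed between the IL-4 libraries. It lay at 127631645 to 127632430, 10556 bp from the Stat6 start and in the interval between Stat6 and Lrp1. The start of Lrp1 was slightly nearer than that of Stat6 to the peaks of WT IL-4 (10497 bp) and KO untreated (10552 bp). The score was 130.5 in KO untreated (percentile 67.6), 144.6 in WT IL-4 (percentile 80.5) and 70.1 in WT untreated (percentile 26.6). KO IL-4 had no peak there. Of the WT IL-4 peaks in the same score decile, 1.21% (0.626 to 2.10) had no counterpart in KO IL-4. The peak stood near the lower edge of that decile, which began at 142.8, and in the decile below 5.44% (4.11 to 7.04) had none. The region was 1 of 48 within 50 kb of the 10 genes, viewed in 4 comparisons. Of the KO untreated peaks in the score decile of 130.5, 19.3% (17.2 to 21.4) had none in KO IL-4.

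Socs1, the gene of the JAK inhibitor SOCS1, had, among the 4 genes of the 10 with a promoter peak in all 4 libraries, the promoter whose place in the lists differed most with IL-4. The highest promoter peak of Socs1 (chromosome 16, 10783808 to 10785536, minus strand) scored 159.7 in KO IL-4, 82.0 in KO untreated, 159.7 in WT IL-4 and 73.3 in WT untreated. It stood at percentiles 83.6, 40.9, 84.6 and 29.7 of the lists in that order. Among the promoters of the 10 genes that had a peak, it ranked 1 of 5 in KO IL-4, 5 of 7 in KO untreated, 1 of 4 in WT IL-4 and 7 of 7 in WT untreated. Both IL-4 lists thus placed Socs1 above Jak1, Tyk2 and Cish, and both untreated lists placed it below them.

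**Figure D2:**
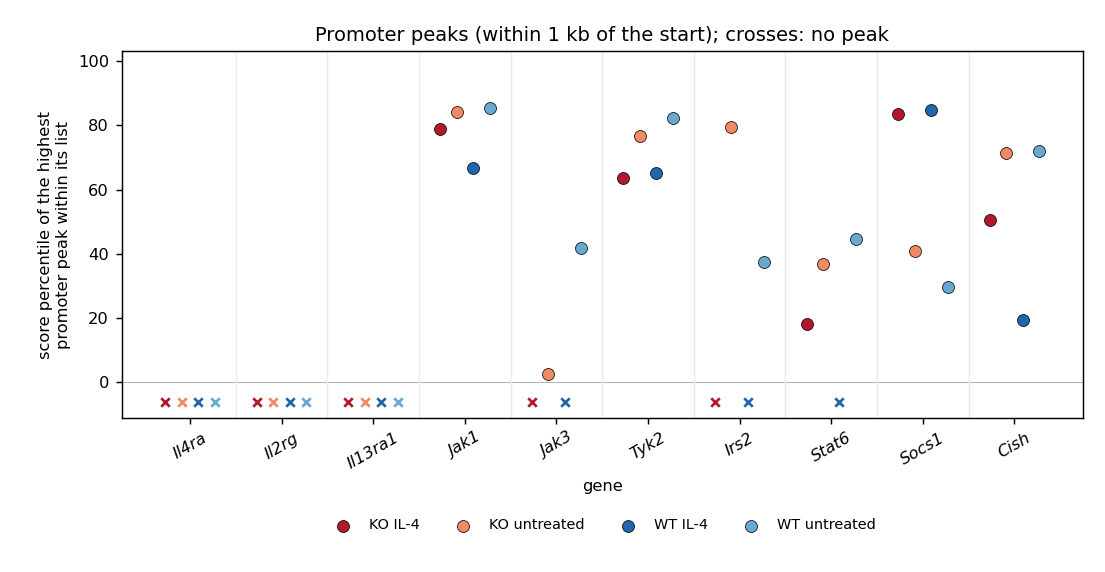
Percentile of the score of each gene's highest promoter peak (within 1 kb of the start) within its own list, with KO IL-4, KO untreated, WT IL-4 and WT untreated from left to right for each gene. Crosses mark libraries with no promoter peak. The Socs1 points are above 80 in the IL-4 lists and at 40.9 and 29.7 in KO untreated and WT untreated, while the IL-4 points of Jak1, Tyk2 and Cish lie below their untreated points.

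Since the lists differ in length, promoters were also ranked within 1 set of genes that is the same in every list, the 4305 genes with a promoter peak in all 4 libraries. Within that set Socs1 stood at percentile 67.3 in KO IL-4, 7.27 in KO untreated, 71.3 in WT IL-4 and 2.28 in WT untreated. The lower of its IL-4 percentiles exceeded the higher of its untreated percentiles by 60.0 points, the largest such gap of the 4305, and the next gene, Cebpa, had 42.2 points. A higher percentile in both IL-4 lists than in both untreated lists was found for 17.1% of these genes, and a lower one in both for 16.5%. Tyk2 (39.0 in KO IL-4, 42.6 in KO untreated, 40.9 in WT IL-4 and 45.4 in WT untreated) and Cish (24.1, 34.3, 6.25 and 26.1 in that order) were among those lower in both. Jak1 (59.9, 58.8, 43.3 and 52.5) was in neither group. This ranking was chosen after the values were seen, it rests on 1 library per group, and it has no test. With the lists at equal lengths Socs1 had no promoter peak in WT untreated, and with scores of 100 or more it had one in the IL-4 libraries only, so no such gap can then be given.

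**Figure D3:**
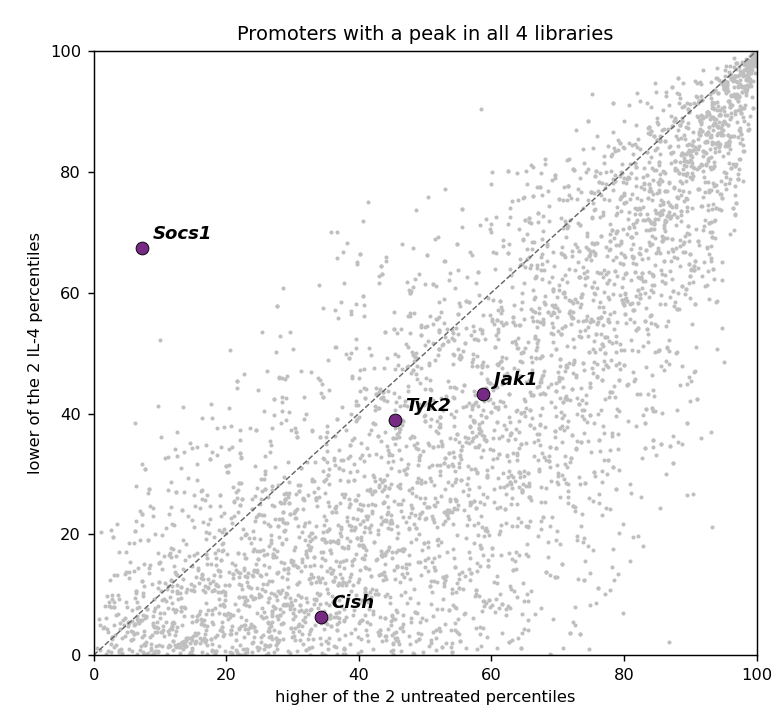
Each point is 1 of the 4305 genes with a promoter peak in all 4 libraries, by the higher of its KO untreated and WT untreated percentiles (x axis) and the lower of its KO IL-4 and WT IL-4 percentiles (y axis). Percentiles are of the promoter peak's score within this set, and genes above the dashed line of equality stand higher in both IL-4 lists. Socs1 is farthest above the line, and Tyk2, Jak1 and Cish lie below it.

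The Socs1 peaks of the IL-4 libraries also reached farther upstream. They extended 916 bp upstream of the start in KO IL-4, in 2 peaks, and 1124 bp in WT IL-4, in 1 peak of 1707 bp that was as wide as or wider than 99.5% of its list. The upstream reach was 352 bp in KO untreated and 368 bp in WT untreated. Downstream of the start the reach was 557 bp in KO IL-4, 188 bp in KO untreated, 582 bp in WT IL-4 and 673 bp in WT untreated, so farthest in WT untreated. The median peak width of the lists was 514, 530, 587 and 438 bp in that order. KO untreated had 1 peak here and WT untreated 2, of 69.3 and 73.3, so the division of the region into peaks also differed. The ranks of Socs1 use its highest peak alone, so they leave out the other peak in KO IL-4 and in WT untreated. What this does to the gap in percentiles was not tested. At the other promoters with a peak in all 4 libraries, Jak1, Tyk2 and Cish, the upstream reach was between 272 and 475 bp in every library. A second region, 30361 bp or more downstream of the Socs1 start, had a peak in all 4 libraries, of 168 in KO IL-4, 220.5 in KO untreated, 138 in WT IL-4 and 237 in WT untreated. The nearest gene span to it was that of Clec16a, 9411 bp or more away.

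Cish (chromosome 9, 107296659 to 107302784, plus strand), the other inhibitor gene, had a promoter peak in all 4 libraries that covered both STAT-type motifs shown above. Its score was 86.6 in KO IL-4 (percentile 50.4), 141 in KO untreated (71.3), 59.9 in WT IL-4 (19.3) and 157 in WT untreated (71.9). Cish therefore stood lower in each IL-4 list than in the untreated list of its genotype, the opposite order to Socs1. A second locus peak, over the start of the neighbour Mapkapk3, scored 118 in KO untreated, 74.4 in WT IL-4 and 121 in WT untreated and was missing from KO IL-4. No counterpart in KO IL-4 was found for 19.3% of KO untreated and 37.2% of WT IL-4 peaks in the same score deciles. A region 17662 bp upstream or more, in the span of Mapkapk3, had a peak in KO untreated (99.5) and WT untreated (170.5) and none in the IL-4 libraries. In the score deciles of these peaks, 31.9% in KO and 18.4% in WT had no counterpart in the IL-4 library. A region 43545 bp downstream of the Cish start, over the start of 6430571L13Rik, had a peak in KO untreated (155), WT IL-4 (71.6) and WT untreated (131.5). KO IL-4 had none there. In the score deciles of the KO untreated and WT IL-4 peaks, 9.99% and 37.2% had no counterpart in KO IL-4.

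Set against all protein-coding loci, the 10 genes lost and gained peaks at about the background rate with IL-4. A peak is called lost when it is in the second library of a comparison and no peak of the first overlaps it by 1 bp, and gained in the reverse case. KO IL-4 against KO untreated gave 5 lost of 15 peaks (33.3%, 11.8 to 61.6) where 35.6% of all locus peaks were lost, and 0 gained of 11 (up to 28.5%) where 15.6% were. The lost peaks were those of Il4ra, Jak1 (101182626), Jak3, Irs2 and Cish described above. WT IL-4 against WT untreated gave 9 lost of 20 (45.0%, 23.1 to 68.5; background 45.1%) and 1 gained of 11 (9.09%, 0.230 to 41.3; background 9.06%), the gained one in Jak1. At promoters, 2 of 7 genes lost their peak in KO, Jak3 and Irs2, against 22.1% of all genes with one in KO untreated. In WT 3 of 7 did, Jak3, Irs2 and Stat6, against 29.0% of all genes with one in WT untreated. Gained promoter peaks were 0 of the 5 in KO IL-4 and 0 of the 4 in WT IL-4. Of all genes with a promoter peak in the IL-4 library, 6.65% in KO and 3.49% in WT had none untreated.

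**Figure D4:**
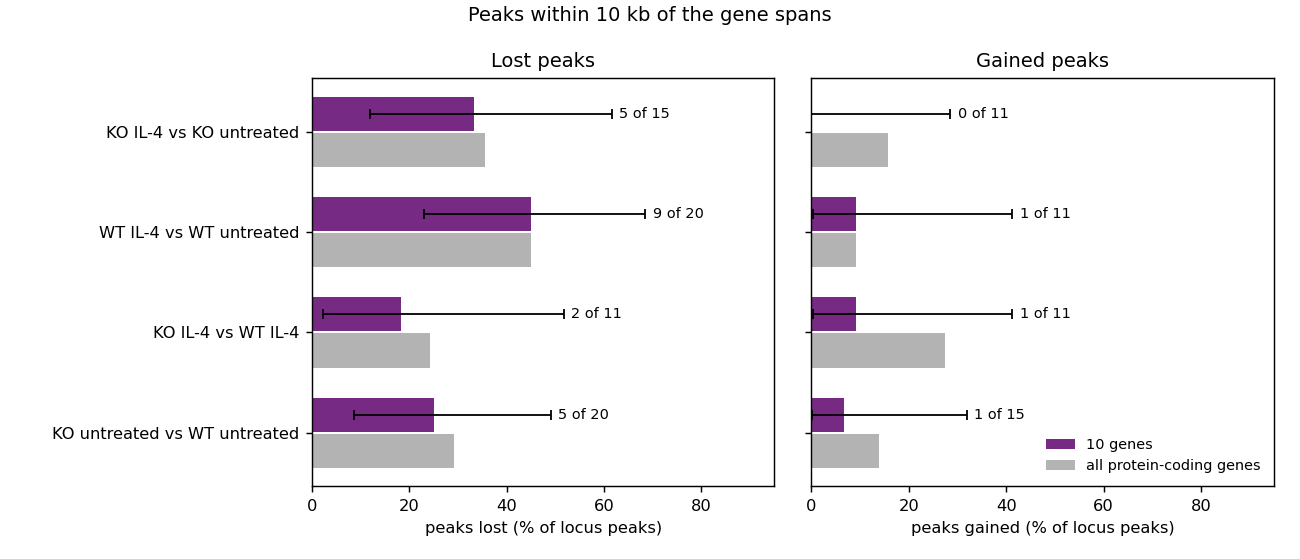
Lost (left) and gained (right) peaks within 10 kb of the gene spans, as a percentage of the locus peaks, for the 10 genes (purple, with exact 95% intervals for counting error) and for all protein-coding genes (grey). The grey bars fall within the interval of the purple ones in all 8 pairs.

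Between genotypes the shares with the full lists were also near or below the background, with intervals that include it. KO IL-4 against WT IL-4 gave 2 lost of 11 peaks (18.2%, 2.28 to 51.8; background 24.2%), in Jak1 and beside Cish, and 1 gained of 11 (9.09%, 0.230 to 41.3; background 27.4%), the Stat6 promoter. That promoter was 1 of 5 with a peak in KO IL-4, and 17.8% of all genes with a promoter peak there had none in WT IL-4. Of the 4 promoters with a peak in WT IL-4, 0 were lost, against 14.8% of all genes with one there. KO untreated against WT untreated gave 5 lost of 20 (25.0%, 8.66 to 49.1; background 29.1%) and 1 gained of 15 (6.67%, 0.169 to 31.9; background 14.0%). The lost ones were 2 at Il4ra and 1 each at Jak1, Jak3 and Irs2, with scores of 54.1 to 93.2, and the gained one lay in Jak1. At equal list lengths the gained share was 33.3% (4 of 12, 9.92 to 65.1) against a background of 20.7%, so it turned from below the background to above it. All 7 promoters with a peak in WT untreated also had one in KO untreated. Of all genes with a promoter peak in WT untreated, 14.5% had none in KO untreated. Of the 7 promoters with a peak in KO untreated, 0 were gained, against 6.48% of all genes with one there.

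**Figure D5:**
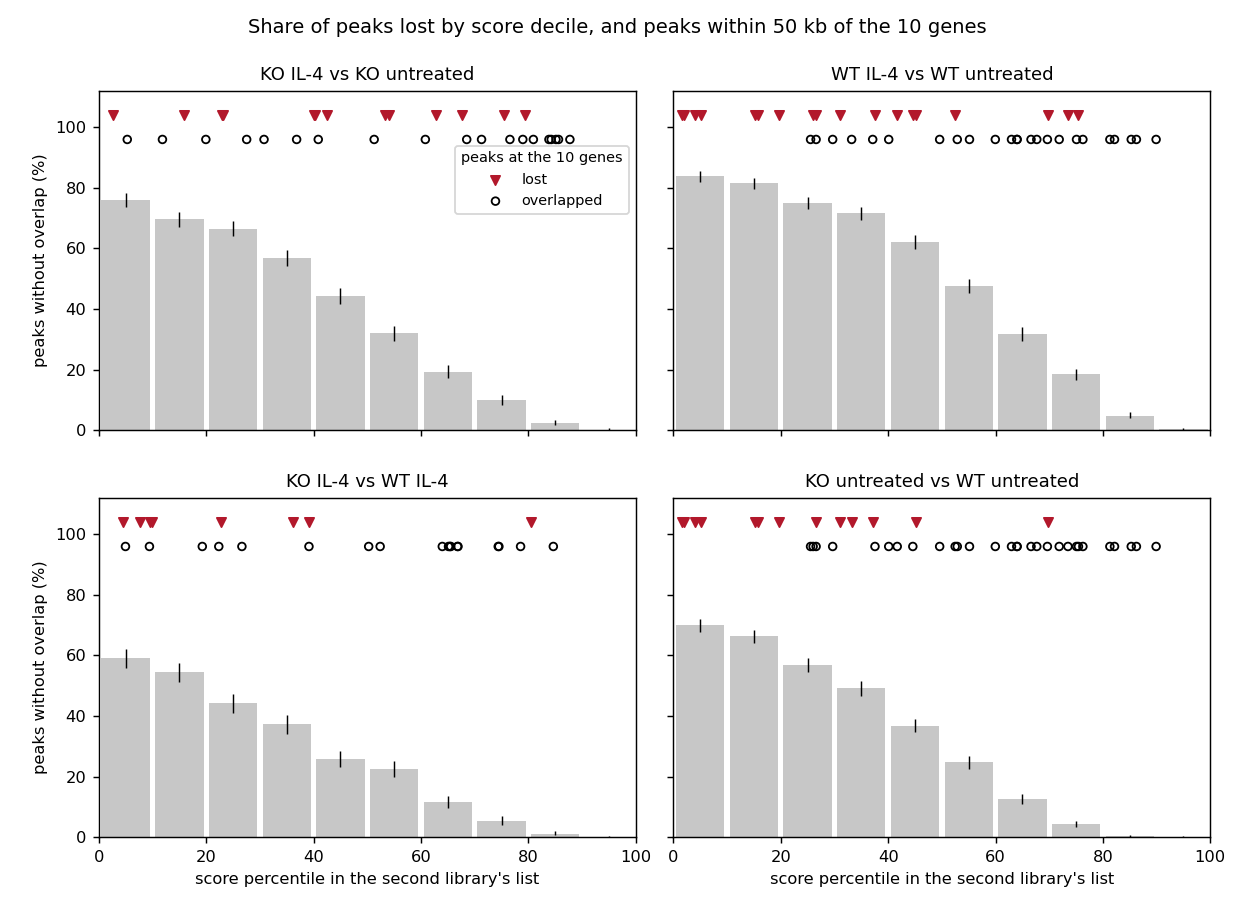
Grey bars give, for each score decile of the second library of a comparison, the percentage of all its peaks with no overlapping peak in the first library, with exact 95% intervals for counting error. Symbols mark the peaks within 50 kb of the 10 genes at their score percentile, as red triangles for lost and open circles for overlapped peaks. Loss falls steeply with score in all 4 panels, and the triangles farthest to the right are the Irs2 promoter (79.4) in KO IL-4 against KO untreated and the region upstream of Stat6 (80.5) in KO IL-4 against WT IL-4.

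Counts of locus peaks like those of the 10 genes were common for some and rare for others. Il2rg and Tyk2, with 1 peak in each library, shared their 4 counts with 3170 other genes (14.5%), among them Cbl, Csf2ra and Csf2rb. The counts of Il4ra were those of 25 other genes, of Jak3 and Irs2 of 132, of Socs1 of 123 and of Cish of 193. Stat6 shared its counts with 50 genes, including the phosphatase gene Ptpn1, and Jak1 with 1.

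A wider list of 64 JAK-STAT and cytokine signalling genes lost and gained peaks at shares near those of all genes. KO IL-4 against KO untreated lost 33 of 88 peaks (37.5%, background 35.6%) and gained 8 of 63 (12.7%, background 15.6%). WT IL-4 against WT untreated lost 43 of 97 (44.3%, background 45.1%) and gained 8 of 63 (12.7%, background 9.06%). KO IL-4 against WT IL-4 lost 16 of 63 (25.4%, background 24.2%) and gained 16 of 63 (25.4%, background 27.4%), and KO untreated against WT untreated lost 26 of 97 (26.8%, background 29.1%) and gained 17 of 88 (19.3%, 11.7 to 29.1; background 14.0%).

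With IL-4 in KO the highest-scoring lost peaks of this list were at Pik3r1, a regulatory subunit of PI3 kinase (196), Ptpn6 (SHP-1, 110.7) and Ptpn1 (PTP1B, 98.1), both tyrosine phosphatases. The highest gained ones were at Pias3, a STAT inhibitor (75.6), beside Il10ra, an IL-10 receptor chain (65.4), and beside Sh2b3, an adaptor that restrains JAK signalling (59.5). In WT the highest lost ones were at Akt2, a kinase downstream of PI3 kinase (156), Ptpn1 (141) and Inpp5d, the lipid phosphatase SHIP1 (139). The highest gained ones were beside Sh2b3 (64.7) and at the adaptor gene Dok2 (63.6) and the interferon receptor gene Ifnar2 (59.1). The gained peaks beside Sh2b3 overlapped in position in both genotypes, at chromosome 5, 121842535 to 121843077 in KO IL-4 and 121842624 to 121843271 in WT IL-4. So did the lost Ptpn1 peaks, at chromosome 2, 167949030 to 167949749 in KO untreated and 167949249 to 167949588 in WT untreated. Among peaks in the score deciles of the Sh2b3 peaks, 40.9% in KO and 18.5% in WT had no untreated counterpart. In those of the Ptpn1 peaks, 31.9% and 31.8% had none with IL-4.

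Between genotypes with IL-4, KO IL-4 lacked WT IL-4 peaks beside Ncoa3, a coactivator (82.7), and at Pik3r1 (82.6) and Dok2 (63.6). It had a peak that WT IL-4 lacked at Il10rb, which also lies within 10 kb of Ifnar2 (84.7). Untreated, KO lacked WT peaks beside Socs3, a family member of Socs1 (127), at Pias3 (109) and near Ep300, a histone acetyltransferase (101.4). The Pias3 peak, at chromosome 3, 96696779 to 96697319 in WT untreated, overlapped the Pias3 peak gained with IL-4 in KO, at 96696794 to 96697319. That site thus had a peak without IL-4 in WT. KO untreated had peaks that WT untreated lacked at Pias1 (82.3), Dok1 (73.0) and the ubiquitin ligase gene Cblb (72.9).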

How the data were processed

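The data were 4 peak lists, 1 per ATAC-seq library, giving where each peak lies and its score. Per the submitters' processing notes, mm10, HOMER, MACS 1.4.2 and Bowtie2 2.2.5 were used, in roles and with parameters that the sources do not state. The score is the authors' value as deposited. No source used here gives its unit, and it was used to rank peaks within a list or within a shared set of promoters.

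Positions were made 1-based. Overlap meant at least 1 bp. Spans came from a RefSeq table and starts from RefSeq promoter entries, held by 17492 of the 21887 protein-coding genes, both on GRCm38.p6. Exons were not separated from introns. Intervals are Clopper-Pearson 95% and cover counting error only. Depth is unknown. No test was run because no group had a second library.

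All 10 genes are named. From the 64 pathway genes, the 3 with the highest-scoring lost and gained peak per comparison are named, except 1 result that is not reported here. For likeness, up to 3 pathway genes, in alphabetical order, with the same 4 counts of locus peaks are named. Genes and lists were chosen with earlier results of these data known, and the score deciles and the shared promoter set after the values were seen. Alternatives were reciprocal overlap of 50%, scores of 100 or more, the 9930 highest peaks of each list, loci of 50 kb or the span alone, no peak within 500 bp, peaks nearest to a listed gene and promoters of 2.5 kb.

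Scripts ran in Python 3.11.15 with SciPy 1.17.1 for intervals, pandas 2.3.3 and NumPy 2.4.6 for tables and Matplotlib 3.10.9 for plots. On simulated data from the 17339 WT untreated peaks, the overlap code found 2976 of 3000 planted losses and 700 of 700 planted gains, and differed from a brute-force comparison at 0 peaks.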

Additional observations from a re-analysis of the deposited data

Results flagged for a closer look

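A region in Jak1 and another near Il4ra had a peak in KO untreated and WT IL-4 only. The presence of a peak thus differed with IL-4 in opposite directions in KO and WT, with 1 library per group. The region in Jak1 at chromosome 4, 101182626 to 101183079 had no peak in KO IL-4 and 1 of score 84.1 in KO untreated, while WT IL-4 had a peak of 61.7 and WT untreated none. Of the KO untreated peaks in the score decile of 84.1, 44.4% had no counterpart in KO IL-4. Of the WT IL-4 peaks in the score decile of 61.7, 18.5% had none in WT untreated. A region 41600 bp downstream of the Il4ra start but nearest to Il21r, 9159 bp from that gene's start, at chromosome 7, 125593871 to 125594270, had no peak in KO IL-4, 59.3 in KO untreated, 54.4 in WT IL-4 and no peak in WT untreated, and the scores in KO untreated and WT IL-4 lie near 50.0, the lowest score in the WT IL-4 list. The difference was not tested, and 207 of the 20540 merged regions (1.01%) had this pattern.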

How the results depend on the processing

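Under the other settings 28 counts and shares left the interval of a share or 1.5 times a count. The other 144 did not, but for the 10 genes intervals on 11 to 20 peaks are too wide to show stability. These numbers include the wider list of 64 genes, with shares on 63 to 97 peaks. The presence of a promoter peak, counted apart for each gene and library, changed in 14 further cases and stayed the same in 106. The share gained with IL-4 in KO was 0% with the full lists (background 15.6%) and 18.2% at equal lengths (background 23.9%). In WT it was 9.09% (background 9.06%) and 27.3% (background 23.5%), so the background rose as well. Socs1 kept the largest gap of all shared promoters with promoters of 2.5 kb (4473 genes) or peaks over the start (3846 genes), both chosen after seeing the data. At equal list lengths the untreated lists lose the low-scoring promoter peaks of Jak3 in both genotypes and of Irs2 and Socs1 in WT, so Socs1 then has a promoter peak in KO IL-4, KO untreated and WT IL-4 and not in WT untreated. Locus peaks in KO IL-4, KO untreated, WT IL-4 and WT untreated numbered 24, 32, 26 and 42 with loci of 50 kb and 4, 7, 5 and 9 with scores of 100 or more. They numbered 7 in KO IL-4 and 7 in WT IL-4 within the span alone, 7 in WT IL-4 for peaks nearest to a listed gene and 11 in WT untreated at equal lengths. Promoter peaks were at 3, 4 and 3 genes in KO IL-4, KO untreated and WT untreated with scores of 100 or more, and at 4 in WT untreated at equal lengths. At equal lengths 45.5% of KO IL-4 and 45.5% of WT IL-4 peaks had a peak in every other library (backgrounds 61.2% and 61.1%), below the background, while with full lists 90.9% and 81.8% did (backgrounds 67.1% and 70.1%), above it. At equal lengths 33.3% of KO untreated peaks were gained against WT untreated (background 20.7%). With scores of 100 or more 0 of 4 KO IL-4 peaks were gained against WT IL-4 (0%, up to 60.2%; background 29.0%). For the pathway list at equal lengths, 26.3% were lost and 31.1% gained with IL-4 in KO (backgrounds 25.2% and 23.9%) and 25.0% and 27.0% in WT (backgrounds 24.1% and 23.5%). With scores of 100 or more, 61.4% were lost and 0% gained with IL-4 in WT (backgrounds 56.0% and 3.85%), and 42.1% lost and 5.71% gained in KO untreated against WT untreated (backgrounds 32.9% and 10.3%). Equal lengths and score minima remove low-scoring peaks by construction; any other cause was not tested. No paired analysis was possible because each group had 1 library, and none could be left out.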
